A study of Mus musculus with 32 samples.

Results

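Cd72, Pirb, Lilrb4a, Lilrb4b, Siglece, Siglec1, Sirpa, Clec12a, Cd300a and Cd300lf are 10 genes for cell surface receptors of myeloid cells, most of which carry inhibitory tails. They are 10 of the 54281 gene identifiers in the table and 10 of the 15257 genes with enough counts to be tested, and all 10 passed that filter. They were selected on measured values of these libraries, because Cd72 was strongly higher after deletion of Trex1, so the differences between Trex1-deleted and control cells are given below as a description without p-values.

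The samples were bone marrow-derived macrophages, cells grown from mouse bone marrow in medium conditioned by L929 fibroblasts, profiled by RNA-seq of total RNA. The mice of one genotype were Trex1 FL/FL R26 CreERT2 and had loxP sites around both Trex1 alleles, and those of the other were Trex1 WT/FL R26 CreERT2 and had them around 1 allele. Cells of each genotype were left untreated or received 2 µg/ml (Z)-4-Hydroxytamoxifen (4-OHT) for 22 h, and were harvested on day 1, 2, 3 or 4 after the 4-OHT period. The 16 groups held 2 libraries each, 32 in all. Every cell carried CreERT2, a Cre recombinase that 4-OHT switches on, from the R26 locus, which is active in most cell types; 4-OHT therefore acts on the floxed allele of the control cells too, and the 4-OHT WT/FL groups keep 1 allele that cannot be removed. The strain and age of the mice are not given in the sources used here, nor is whether the 2 libraries of a group came from separate animals or cultures, so the p-values measure only the spread between these libraries, which may be technical.

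Inhibitory receptors of this kind carry short tyrosine motifs (ITIMs) in their cytoplasmic tails. When the receptor meets its ligand, Src-family kinases phosphorylate the motif, and it then recruits the phosphatases SHP-1, SHP-2 or SHIP-1, which oppose signals from activating receptors that work through adaptors such as DAP12 and the Fc receptor γ chain. In macrophages these receptors read self ligands: CD72 binds CD100, PIR-B binds MHC class I, SIRPα binds CD47, Siglecs bind sialic acid, CLEC12A recognises uric acid crystals, and the CD300 receptors bind lipids exposed on dying cells. The name inhibitory does not hold for the whole set, since Siglec1 (sialoadhesin) has no ITIM and Lilrb4b (gp49A) lacks the ITIMs of its neighbour Lilrb4a (gp49B).

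The genes lie on 6 chromosomes of the mouse genome (GRCm39, GENCODE vM39). Cd72 (ENSMUSG00000028459.11) lies at chr4:43446431-43455129 on the minus strand and overlaps Tesk1 on the other strand. Lilrb4b (ENSMUSG00000112023.1) at chr10:51356728-51362799 and Lilrb4a (ENSMUSG00000112148.1) at chr10:51367027-51372707 follow each other on the plus strand, 4227 bases apart. Cd300a at chr11:114768840-114795480 and Cd300lf at chr11:115007040-115024818 are 211559 bases apart, and Sirpa (chr2:129434039-129474148) and Siglec1 (chr2:130911140-130928685) share chromosome 2. Pirb (chr7:3714408-3723416), Siglece (chr7:43298405-43309607) and Clec12a (chr6:129319654-129342266) have no other member nearby. Some of these genes have close copies. Of all 31-base stretches of its exons, Lilrb4a shared 55.1% with other genes, 38.8% with Lilrb4b alone. Lilrb4b shared 37.2% and Pirb shared 44.8%, of which 22.7% were with Pira12. The counts of these 3 genes are uncertain, because reads from the shared stretches could be assigned to either copy. Cd300a shared 7.91%, Cd300lf 4.47% and the other 5 genes at most 1.66%, with Cd72 at 0.

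The 300 bases before the canonical start site were searched on both strands for 4 motifs of myeloid and interferon-responsive promoters. The PU.1 core GAGGAA, from the binding site of a factor of the myeloid lineage, was present in 27.4% of the 15155 promoters of tested genes and in 7 of the 10 receptor promoters, with 4 copies in Pirb, 2 in Siglece and 1 each in Cd72, Sirpa, Clec12a, Cd300a and Cd300lf. The ISRE core, a site of interferon-activated factors with GAAA, any pair of bases and a further GAAA, was in 4.04% of promoters and none of the 10. The AP-1 motif TGANTCA was in 6.16% of promoters and none of the 10. The GAS motif TTCNNNGAA, to which STAT dimers bind, was in 8.14% of promoters and in those of Lilrb4a and Lilrb4b, 124 bases before the start. No match says only that these letters are absent from this window.

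The promoters of the 3 genes with the largest day 4 differences, and of Clec12a, first of all genes in Pearson's r with Cd72 over the 32 libraries, are printed in the direction of transcription, 5′ to 3′, ending at the base before the start. Capitals mark the PU.1 core, read as TTCCTC where it lies on the opposite strand, and Siglec1 has no match to any of the 4 motifs.
Cd72 (chr4:43455130-43455429, minus strand): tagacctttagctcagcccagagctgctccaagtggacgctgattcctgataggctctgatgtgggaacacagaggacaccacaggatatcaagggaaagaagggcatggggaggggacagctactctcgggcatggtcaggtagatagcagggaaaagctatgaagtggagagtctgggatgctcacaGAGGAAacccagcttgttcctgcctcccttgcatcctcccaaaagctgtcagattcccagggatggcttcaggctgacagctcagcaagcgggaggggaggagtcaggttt
Cd300lf (chr11:115024819-115025118, minus strand): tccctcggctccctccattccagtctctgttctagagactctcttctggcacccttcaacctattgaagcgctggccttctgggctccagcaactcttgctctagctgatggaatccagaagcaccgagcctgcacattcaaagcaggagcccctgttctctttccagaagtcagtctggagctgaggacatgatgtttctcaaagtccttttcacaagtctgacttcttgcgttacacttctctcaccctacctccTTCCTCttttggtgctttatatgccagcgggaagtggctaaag
Siglec1 (chr2:130928686-130928985, minus strand): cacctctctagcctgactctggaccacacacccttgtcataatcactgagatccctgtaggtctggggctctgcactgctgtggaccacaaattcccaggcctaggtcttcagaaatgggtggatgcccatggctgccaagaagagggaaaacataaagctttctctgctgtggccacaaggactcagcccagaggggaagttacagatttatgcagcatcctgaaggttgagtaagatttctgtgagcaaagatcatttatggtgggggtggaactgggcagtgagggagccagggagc
Clec12a (chr6:129326627-129326926, plus strand): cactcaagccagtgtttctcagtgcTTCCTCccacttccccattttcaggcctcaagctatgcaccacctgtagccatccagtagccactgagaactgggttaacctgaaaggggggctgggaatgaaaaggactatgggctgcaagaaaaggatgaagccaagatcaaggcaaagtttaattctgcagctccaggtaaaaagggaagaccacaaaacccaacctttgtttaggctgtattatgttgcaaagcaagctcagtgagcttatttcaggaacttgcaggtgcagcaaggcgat

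The 200 bases before the starts of Lilrb4a and Lilrb4b are printed to show how alike the neighbouring copies are. They were identical at 192 of 201 aligned columns (95.5%), and capitals mark the GAS motif.
Lilrb4a (chr10:51366827-51367026, plus strand): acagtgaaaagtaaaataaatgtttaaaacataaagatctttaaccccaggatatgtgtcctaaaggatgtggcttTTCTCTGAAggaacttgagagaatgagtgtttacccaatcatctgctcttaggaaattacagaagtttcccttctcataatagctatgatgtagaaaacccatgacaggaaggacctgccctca
Lilrb4b (chr10:51356528-51356727, plus strand): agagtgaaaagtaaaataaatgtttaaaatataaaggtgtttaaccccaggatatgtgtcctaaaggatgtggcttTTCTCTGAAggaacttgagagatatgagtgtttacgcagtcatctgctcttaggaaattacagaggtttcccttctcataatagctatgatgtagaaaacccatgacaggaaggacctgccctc

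The libraries held 35120505 to 63760884 assigned counts (median 44841991). Trex1 was at 0 counts in 6 of the 8 libraries of 4-OHT FL/FL cells, which allows up to 3 counts in each, and at 14 and 9 counts in those of day 2. In 4-OHT WT/FL cells it averaged 13.6, 57.2, 74.2 and 48.4 CPM (counts per 1000000 of the normalised library size) on days 1 to 4, beside 30.3, 119, 135 and 84.3 CPM in untreated WT/FL cells. All Trex1 exon stretches are shared with the overlapping gene Atrip, so this check holds for the pair as the authors' counting split them. The 8 macrophage markers summed to 15138 to 49106 CPM. Of the 7 B cell markers, which matter here because Cd72 is best known from B cells, Cd79a, Ms4a1, Pax5 and Blk had at most 7 counts in any library, Cd79b was at 1.23 to 6.56 CPM in the 32 libraries, and Ighm, at 27.7 to 219 CPM, made up most of the B cell sum. Neutrophil markers summed to at most 14.3 CPM, fibroblast markers to 3.25, dendritic cell markers to 2.21, mast cell markers to 0.771 and T and NK cell markers to 0.564.

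Cd72, the CD100 receptor with an ITIM, stood at 4.22 times the control level on day 4 after Trex1 deletion. On day 1 its level was 89.8 and 96.0 CPM in the 4-OHT FL/FL libraries and 91.4 and 94.0 CPM in the 4-OHT WT/FL libraries. The FL/FL libraries then stood at 360.0 and 357 CPM on day 2, 528 and 509 on day 3, and 880.0 and 896 on day 4. The 4-OHT WT/FL libraries stood at 165 and 148 CPM on day 2, 163 and 203 on day 3, and 208 and 213 on day 4. All 6 of these 4-OHT FL/FL libraries lay above the other 26 libraries of the series, and on day 1 the groups overlapped. The log2 difference between the 4-OHT genotypes was 0.00 on day 1, and it went through 1.19 and 1.5 on the days between to 2.08 on the last day (SE 0.08 for each). Against untreated FL/FL cells of the same day (165 and 186 CPM on day 4) the day 4 difference was 2.34 (SE 0.08), and 1.81 (SE 0.11) remained after the 4-OHT effect in WT/FL cells was subtracted. That effect includes the loss of the floxed Trex1 allele of the WT/FL cells. The gene on the other strand, Tesk1, had 2487 to 4943 counts, and its day 4 log2 difference of 0.10 (SE 0.06, adjusted p = 0.269, edgeR) did not pass the test. As these are bulk samples, more cells that express a gene and more RNA per cell cannot be told apart.

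Cd300lf and Cd300a are ITIM receptors of the CD300 family that bind lipids of dying cells. They were apart in both size and timing. Cd300lf had the largest day 4 difference of the 10 genes with 4-OHT WT/FL cells as the control, but its lead over Cd72 was smaller than its SE. Against untreated FL/FL cells of day 4 its log2 difference was 2.00 (SE 0.16), below that of Cd72 (2.34, SE 0.08). The 4-OHT FL/FL libraries held Cd300lf at 25.3 and 30.7 CPM on day 1, 27.9 and 31.6 on day 2, 42.7 and 49.4 on day 3, and 50.4 and 55.3 on day 4. The 4-OHT WT/FL libraries went the other way, from 30.6 and 27.4 CPM on day 1 to 17.0 and 13.0 on day 2, 20.5 and 24.7 on day 3, and 10.6 and 12.8 on day 4. The groups overlapped on day 1 and were apart on the other days. The log2 difference was 0.99 (SE 0.15), then 1.03 (SE 0.15) and on day 4 2.18 (SE 0.16), or 4.53-fold. Day 4 levels were 1.89 times those of day 1 in 4-OHT FL/FL cells and 0.403 times in 4-OHT WT/FL cells. Rab37, which overlaps Cd300lf, had 3 to 30 counts in any library. Cd300a overlapped the controls on day 2, lay below them on day 3 (369 and 361 against 391.5 and 389.5 CPM) and above them on day 4 (427 and 423 against 342 and 368 CPM). Its log2 differences on days 2, 3 and 4 were 0.06, -0.10 and 0.26 (SE 0.05 for each).

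**Figure D1:**
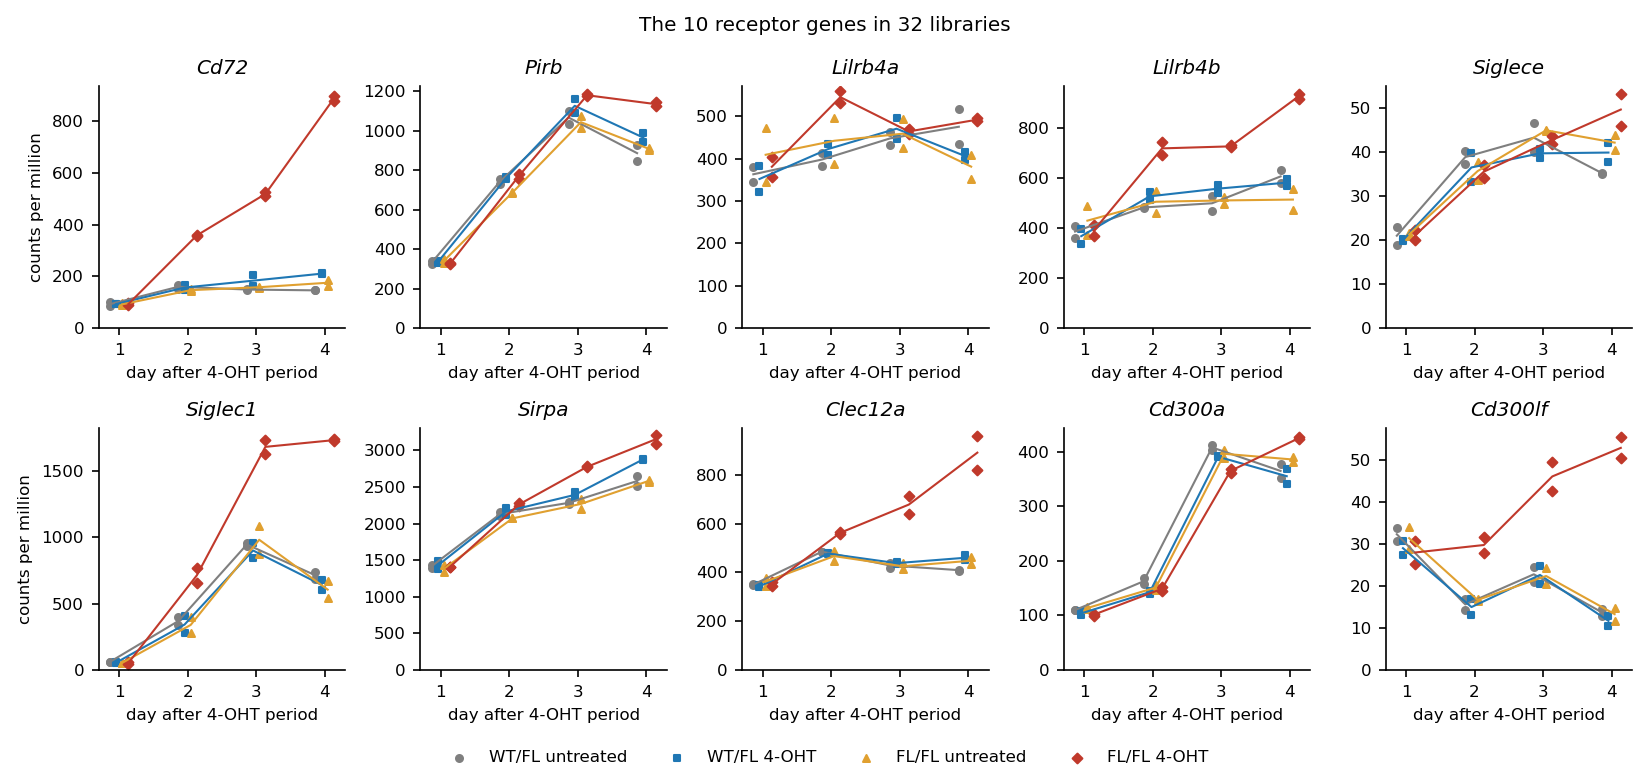
CPM of each of the 10 receptor genes (linear axes from 0) by day after the 4-OHT period, with 1 point for each of the 32 libraries and lines through the means of the 2 libraries of each group. Cd72 in 4-OHT FL/FL cells reached 880.0 and 896 CPM on day 4 against 208 and 213 CPM in 4-OHT WT/FL cells. For Sirpa, Pirb and Cd300a the 4 conditions lay much closer together, though the 4-OHT genotypes did not overlap on day 4.

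Siglec1, the sialic acid-binding adhesion receptor of macrophages without an ITIM, had the widest range of the set as a ratio, 35.9-fold, from 48.5 to 1739.7 CPM. Its 4-OHT FL/FL libraries held 772 and 656 CPM on day 2, 1734 and 1630.1 on day 3, and 1739.7 and 1726 on day 4. The 4-OHT WT/FL libraries held 408 and 278 CPM, 843 and 959.9, and 604 and 681 on the same days. Both deleted libraries lay above both controls on each of these days, and on day 1 all 4 libraries lay between 48.5 and 59.9 CPM. The log2 differences on days 2, 3 and 4 were 1.06, 0.90 and 1.43 (SE 0.18 for each). The day 4 level was 32.4 times that of day 1 in 4-OHT FL/FL cells and 11.5 times in 4-OHT WT/FL cells. Siglece, a CD33-related Siglec with an ITIM, was expressed far lower. On day 4 it was at 53.2 and 45.9 CPM in 4-OHT FL/FL cells against 37.6 and 42.0 CPM in 4-OHT WT/FL cells, with a log2 difference of 0.32 (SE 0.10), which was 0.06 after the 4-OHT effect in WT/FL cells was subtracted. On days 2 and 3 its log2 differences were -0.04 and 0.11 (SE 0.10 for both).

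Clec12a, the C-type lectin for uric acid crystals, was higher in 4-OHT FL/FL cells by a little more on each day. Its libraries held 558 and 567 CPM on day 2, 715 and 641 on day 3 and 960.2 and 821 on day 4. The 4-OHT WT/FL libraries stayed between 435 and 478 CPM on these days. The groups did not overlap on days 2, 3 or 4, and the log2 differences were 0.24, 0.63 and 0.95 (SE 0.06 for each).

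Lilrb4a and Lilrb4b, the neighbouring gp49 genes, and Pirb, the MHC class I receptor, come from the leukocyte immunoglobulin-like receptor family. Lilrb4b, the copy without ITIMs, was at 937 and 916 CPM on day 4 in 4-OHT FL/FL cells and at 594 and 567 CPM in 4-OHT WT/FL cells, a log2 difference of 0.67 (SE 0.11). Lilrb4a was at 497 and 488 CPM against 416 and 397 CPM, a log2 difference of 0.28 (SE 0.14) that followed 0.37 on day 2 and -0.02 on day 3. Of the counts assigned to the pair, Lilrb4a took 34.7% in both 4-OHT FL/FL libraries of day 4 and 41.2 to 45.0% in the other 6 libraries of that day. Because the 2 copies share sequence, their sum with Gm49339, a gene model that spans both, does not depend on how reads were split among the 3. It was 1824 and 1797 CPM in the 4-OHT FL/FL libraries of day 4 and 1270 and 1226 CPM in the 4-OHT WT/FL libraries. Pirb was at 1147 and 1124 CPM on day 4 against 988 and 944 CPM, a log2 difference of 0.23 (SE 0.05), after 0.01 on day 2 and 0.07 on day 3.

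Sirpa, the CD47 receptor, was the most abundant of the genes and had the smallest day 4 difference from 4-OHT WT/FL cells. Its level on day 4 was 3089.9 and 3211 CPM in 4-OHT FL/FL cells and 2873 and 2883 CPM in 4-OHT WT/FL cells. The log2 differences were 0.06, 0.21 and 0.13 on days 2, 3 and 4 (SE 0.05 for each). Against untreated FL/FL cells of day 4 the Sirpa difference was 0.28 (SE 0.05), above those of Cd300a (0.14, SE 0.05) and Siglece (0.24, SE 0.10).

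Across the set, both 4-OHT FL/FL libraries lay above both 4-OHT WT/FL libraries for 0, 7, 8 and 10 of the 10 genes on days 1 to 4, beside 12.9%, 25.2%, 28% and 27.9% of all tested genes on the same days. Both lay below for 1 gene on day 1 and 1 on day 3, beside 17.4%, 26.6%, 29.4% and 35% of all tested genes on days 1 to 4. The median log2 differences of the 10 genes over days 1 to 4 were -0.01, 0.30, 0.30 and 0.50, and that of all tested genes -0.01, -0.01, -0.01 and -0.04. These values come from the contrast on which the genes were selected and are a description.

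**Figure D2:**
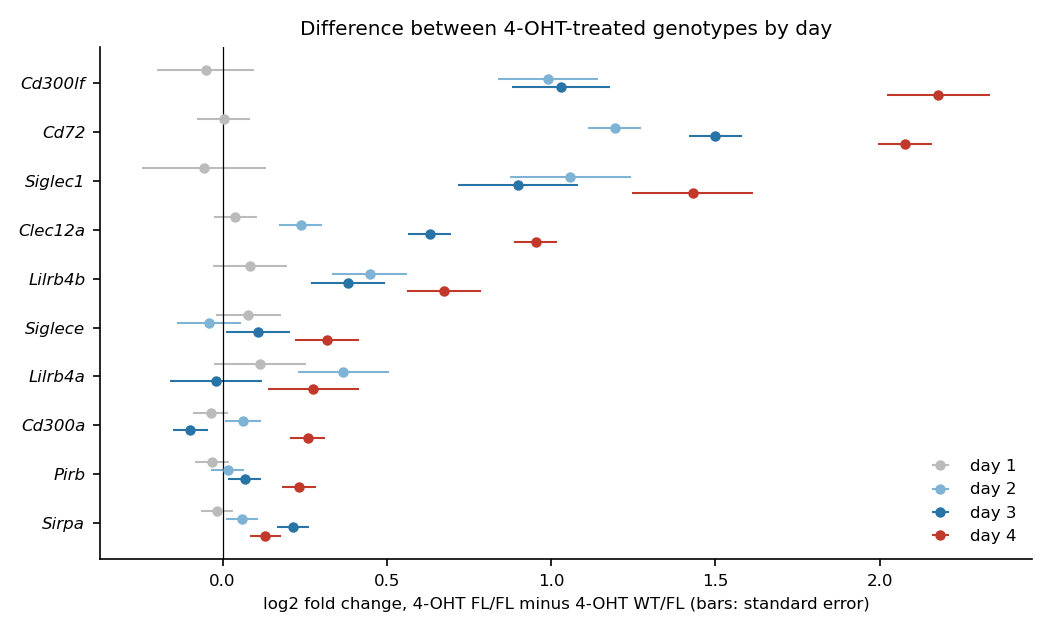
Log2 fold change between 4-OHT FL/FL and 4-OHT WT/FL cells (x axis) for the 10 receptor genes on days 1 to 4, with bars for the standard error of the fit. On day 1 all 10 lie between -0.06 and 0.11, and on day 4 Cd300lf (2.18) and Cd72 (2.08) are farthest from 0 and Sirpa (0.13) is nearest.

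Genes outside the set were tested in the same contrast, with a Benjamini-Hochberg adjusted p below 0.01 over all tested genes as the call (edgeR quasi-likelihood test). On day 4 this called 9.84% of all tested genes higher and 11.7% lower in 4-OHT FL/FL cells. The macrophage markers moved unevenly, with 1 of the 8 called higher (Fcgr1, an Fc receptor, log2 difference 2.27, SE 0.11) and 3 called lower (Csf1r -0.28, Itgam -0.35 and Mrc1 -1.09). Their sum over days 2 to 4 ranged from 27038 to 39344 CPM in 4-OHT FL/FL cells and from 31317 to 48527 CPM in 4-OHT WT/FL cells. The B cell sum ranged from 76.9 to 158 CPM and from 96.3 to 200 CPM in the same groups, and Ighm was lower in 4-OHT FL/FL cells on day 3 (log2 difference -1.32, adjusted p = 3.57e-11). The part of the macrophage markers in the receptor levels was not tested.

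4-OHT against untreated was tested in WT/FL cells, which keep 1 Trex1 allele, over the 4 days together. Because 4-OHT also acts on the floxed allele of these cells, its own effect and loss of that allele cannot be told apart. Cd72 was the 1 gene of the 10 that passed, beside 0.557% of all tested genes. Its untreated WT/FL libraries held 85.8 to 167 CPM over the 4 days, with 150.1 and 148 on day 3 and 146 and 145 on day 4, and the 4-OHT libraries given above were higher on both of those days without overlap. Cd72 rose by 0.20 on the log2 scale over the 4 days (SE 0.04, adjusted p = 0.00678, edgeR quasi-likelihood test), with 0.00, -0.03, 0.30 and 0.53 on days 1 to 4 (SE 0.08 for each). The treated libraries of this comparison are also the controls of the contrast on which Cd72 was selected. The call was lost when the fit held only the groups compared (adjusted p = 0.0652) and when any 1 of 12 of the 16 libraries compared was left out (log2 change 0.16 to 0.21, adjusted p = 0.0138 to 0.0277). The other 9 genes lay between -0.12 (Siglec1) and 0.07 (Sirpa).

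The 2 genotypes were compared without 4-OHT to see whether the floxed alleles alone went with other levels. None of the 10 genes was called between untreated FL/FL and untreated WT/FL cells over the 4 days, beside 0.0197% of all genes, or 3 genes (1432 at an unadjusted p under 0.05 and 31 with DESeq2). The log2 differences lay between -0.12 (Siglec1, SE 0.09) and 0.05 (Cd72, SE 0.04). A mean over days can hide a single day, and on day 4 alone 10 of all tested genes were called. On that day untreated FL/FL libraries held Cd72 at 165 and 186 CPM, against 146 and 145 CPM in WT/FL. Siglece, Clec12a and Cd300a also lay above without overlap, and Lilrb4a, Lilrb4b and Siglec1 lay below. These day 4 receptor values are given without a test, and the share of all genes without overlap was not computed. The change from day 1 to day 4 was also not called as different between the untreated genotypes for any of the 10 genes, where 0% of all genes were called (0 genes, 1780 at an unadjusted p under 0.05 and 3 with DESeq2). The difference of changes ran from -0.49 (Lilrb4a, SE 0.20) to 0.27 (Cd72, SE 0.11). The library FL/FL untreated day 1 replicate 1 weighed on both counts, which became 154 and 626 genes without it. Without it the first difference still lay between -0.14 (Siglec1) and 0.07 (Cd72) and the difference of changes for Lilrb4a was -0.70 (adjusted p = 0.0308), and no receptor gene was called. Leaving out FL/FL untreated day 4 replicate 2 gave 8 genes in the first comparison.

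Time in culture was tested in untreated cells of both genotypes together, 4 libraries a day. From day 1 to day 4, 8 of the 10 genes rose, beside 32.7% of all tested genes, and 1 fell, beside 31.3%. The median log2 change of the 10 was 0.83, that of all tested genes 0.03. Siglec1 went from 52.1 to 61.6 CPM on day 1 to 541 to 739 CPM on day 4 and rose by 3.51 (SE 0.14, adjusted p = 1.39e-13). Cd300a rose by 1.75 (SE 0.04, adjusted p = 6.63e-24), Pirb by 1.42 (SE 0.04), Sirpa by 0.88 (SE 0.03) and Siglece by 0.87 (SE 0.07). Cd72 rose by 0.80 (SE 0.06, adjusted p = 1.24e-12), Lilrb4b by 0.45 (SE 0.08) and Clec12a by 0.27 (SE 0.05). The same Cd72 value, a rise without any 4-OHT, stands beside the 2.08 by which the 4-OHT genotypes differed on day 4. Cd300lf was the gene that went down, from 28.8 to 34.0 CPM on day 1 to 11.8 to 14.8 CPM on day 4, and it fell by 1.24 (SE 0.11, adjusted p = 6.37e-10). Lilrb4a, with a log2 change of 0.14 (SE 0.10, adjusted p = 0.203), did not pass.

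The day steps differed between the genes. From day 1 to day 2, 8 genes rose, beside 25.6% of all genes, and Cd300lf fell by 0.98 (SE 0.11), beside 24% that fell. Siglec1 had the highest change of that step, 2.62 (SE 0.14), and Pirb rose by 1.09 (SE 0.04). Lilrb4b rose by 0.28 (SE 0.08, adjusted p = 0.00538), a call that was lost with other normalisations (adjusted p = 0.0124 and 0.0192) and in the fit of only the groups compared (0.0562), and that ended without WT/FL untreated day 1 replicate 1, either WT/FL or the second FL/FL library of day 2, or FL/FL untreated day 1 replicate 1 (log2 change 0.19 to 0.28). From day 2 to day 3, 6 genes rose, beside 24.8%, and Clec12a fell by 0.16 (SE 0.05), beside 23.4%. Cd300a rose by 1.36 (SE 0.04), most of its whole change, Siglec1 by 1.44 (SE 0.13), Pirb by 0.56 (SE 0.04) and Cd300lf by 0.48 (SE 0.11). Siglece rose by 0.24 (SE 0.07), a call that ended without WT/FL untreated day 2 replicate 1 or day 3 replicate 2, or without FL/FL untreated day 2 replicate 2 or day 3 replicate 1 (0.18 to 0.24). Sirpa rose by 0.12 (SE 0.03), a call that stayed without 1 of the 8 libraries, FL/FL untreated day 3 replicate 2, and ended without each of the other 7 (0.09 to 0.12). It also ended with RLE factors (0.09, adjusted p = 0.0188, edgeR), the weaker filter (0.11, 0.0151) and the fit of only the groups compared (0.08, 0.0446). The Clec12a call ended without either WT/FL library of day 2, the second FL/FL library of day 2 or the second library of either genotype on day 3 (-0.16 to -0.12). Cd72 had a log2 change of 0.00 (SE 0.06) in this step and 0.06 (SE 0.06) in the next. From day 3 to day 4, Sirpa rose by 0.18 (SE 0.03), 1 gene beside 10.7% of all, and 3 genes fell, beside 11.8%. These were Cd300lf by 0.75 (SE 0.11), Siglec1 by 0.55 (SE 0.13) and Pirb by 0.23 (SE 0.04). The Siglec1 call ended without the first library of either genotype on day 3 or the second of either genotype on day 4 (-0.54 to -0.47).

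Levels were compared between genes per kilobase of exon in untreated cells. Sirpa was the highest on every day, at 200.2 CPM per kb (SD 6.64, n = 4) on day 1 and 369 (SD 8.78) on day 4. On day 1 Lilrb4b (74.9, SD 10.4), Lilrb4a (73.6, SD 11.5) and Pirb (73.4, SD 2.52) came next and did not differ beyond their spread, followed by Clec12a (60.5, SD 2.59). Cd72 (23.3, SD 1.55) and Cd300a (22.7, SD 0.586) lay within their spread of each other, and Siglec1 (8.12, SD 0.618), Cd300lf (6.18, SD 0.491) and Siglece (5.06, SD 0.400) were the lowest. By day 4 Pirb was second at 196 (SD 7.78). Lilrb4b (103, SD 12.2), Siglec1 (92.4, SD 11.8), Lilrb4a (81.6, SD 13.0), Cd300a (76.2, SD 3.40) and Clec12a (72.7, SD 4.26) followed, each within the spread of the next. Cd72 was eighth at 40.6 (SD 4.84), and Siglece (9.25, SD 1.02) and Cd300lf (2.62, SD 0.278) had changed places at the end.

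**Figure D3:**
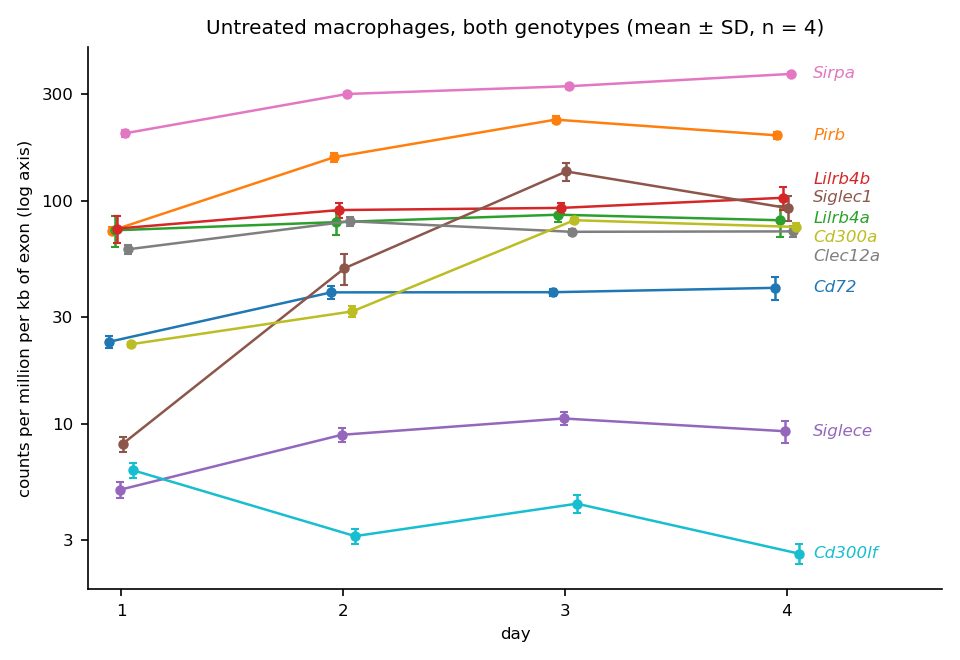
Mean level in untreated cells of both genotypes (CPM per kb of exon, log axis) by day, with bars for the SD of 4 libraries. Sirpa is at the top on each day, Siglec1 climbs from 8.12 on day 1 to 135 on day 3, and Cd300lf ends lowest at 2.62.

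The genes with levels most like those of Cd72 were sought by Pearson's r of log2 CPM over the 32 libraries among all tested genes. Clec12a was first of them all (r = 0.967, Spearman's rho = 0.855), then Gm6377 (0.955), Ddit3 (0.953), which encodes the stress-induced factor CHOP, Sh3bp2 (0.952), an adaptor protein, and Pou3f1 (0.943), a transcription factor gene. By Spearman's rho the first were Ncstn (0.927), Ddit3 (0.922), Unc13d (0.922), Gnas (0.921) and, tied, Tmem106a and Blnk (0.917), so 1 gene was in both lists. The libraries share genotype, treatment and day, and the 6 libraries of 4-OHT FL/FL cells from day 2 on hold the widest part of the range. Over the other 26 libraries r was 0.873 for Clec12a, 0.902 for Gm6377, 0.952 for Ddit3, 0.806 for Sh3bp2 and 0.853 for Pou3f1. On day 4 Ddit3 was at 61.7 and 64.8 CPM in 4-OHT FL/FL cells against 18.3 and 20.2 CPM in 4-OHT WT/FL cells, and Pou3f1 was at 20.5 and 18.1 CPM against 0.793 and 0.367 CPM. Among the receptors Lilrb4b was the next like Cd72 (r = 0.930, rank 15 of all genes), and Cd300lf was the least like it (r = 0.400). Over the other 26 libraries Cd300lf ran opposite to Cd72 (r = -0.763), while Sirpa (0.951), Pirb (0.922), Siglece (0.910) and Siglec1 (0.904) ran with it.

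**Figure D4:**
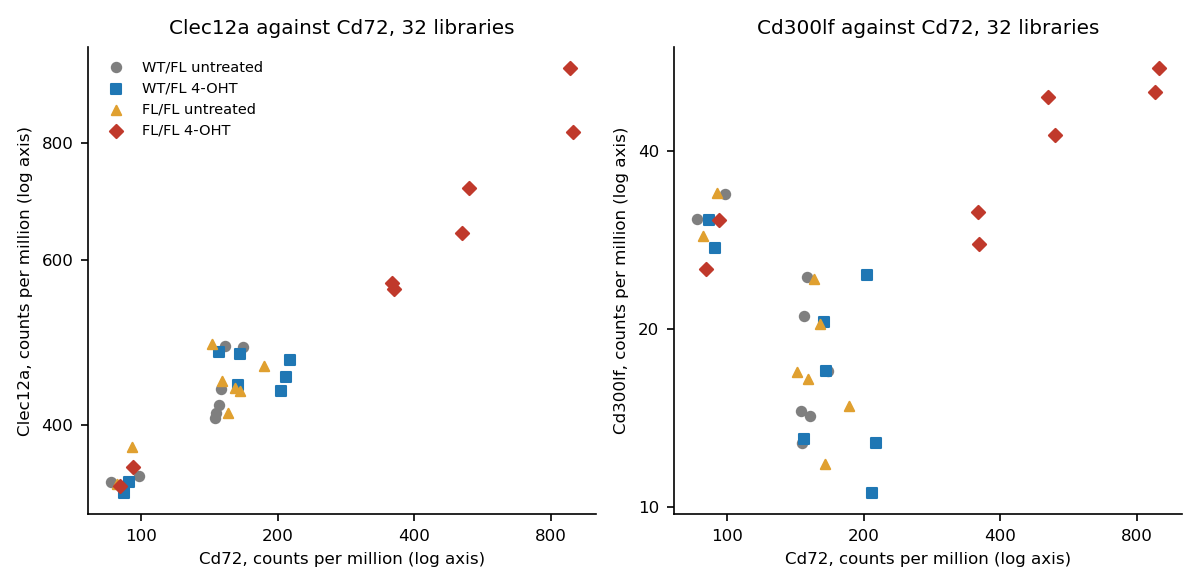
Levels of Clec12a (left) and Cd300lf (right) against Cd72 in the 32 libraries, all in CPM on log axes, with colour and symbol for genotype and treatment. Clec12a goes up with Cd72 over the 32 libraries as a whole (r = 0.967) but goes down from day 2 to day 3 in 4-OHT WT/FL and untreated cells, and Cd300lf goes down with Cd72 in the lower range and up among the 4-OHT FL/FL libraries of days 2 to 4 (r = 0.400).

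Genes that act with these receptors were read from fixed lists in the 4-OHT genotype comparison, with the edgeR test over all genes. Rose or fell here means higher or lower in 4-OHT FL/FL than in 4-OHT WT/FL cells. The lists were chosen with earlier results of these data known, so their counts beside the share of all genes are a description. Of the 12 ligand genes, 7 were called higher and 1 lower on day 4, beside 9.84% and 11.7% of all tested genes (median log2 difference 0.51, all tested genes -0.04). The counts of the other lists on day 4 stand beside the same shares. Sema4d, the CD100 ligand of CD72, was at 770.5 CPM (SD 18.5, n = 2) in 4-OHT FL/FL and 525 CPM (SD 14.9) in 4-OHT WT/FL cells on day 4 (log2 difference 0.55, SE 0.05, adjusted p = 1.50e-09). The SIRPα ligand gene Cd47 rose by 0.53 (SE 0.06), the MHC class I genes H2-K1 by 1.08 (SE 0.10), H2-D1 by 0.81 (SE 0.10) and B2m by 0.65 (SE 0.05), and the sialoglycoprotein genes Spn and Selplg by 1.27 (SE 0.14) and 0.49 (SE 0.07). Itgb3, the β3 integrin chain, fell by 2.17 (SE 0.25, adjusted p = 1.13e-07), from 5.32 CPM in the 4-OHT WT/FL to 1.18 CPM in the 4-OHT FL/FL libraries. Of the 13 genes for making or removing sialic acid, 2 were called higher and 2 lower on day 4 (median 0.03), with 9.84% and 11.7% of all tested genes as background. St3gal6 rose by 2.51 (SE 0.43) from 0.893 to 5.11 CPM and St3gal5 by 0.75 (SE 0.09), while St6gal1 fell by 0.67 (SE 0.06) and St3gal1 by 0.40 (SE 0.07).

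Inside the cell, 5 of the 11 genes for the phosphatases, docking proteins and Src-family kinases of these tails were called higher on day 4, beside 9.84% of all tested genes, and 1 lower, beside 11.7% (median 0.15). Ptpn6, which encodes SHP-1, rose by 0.39 (SE 0.05), and the kinase genes Lyn and Csk by 0.67 (SE 0.06) and 0.39 (SE 0.06). The genes of the other phosphatases named above, Ptpn11 (SHP-2, -0.16, SE 0.06) and Inpp5d (SHIP-1, -0.15, SE 0.06), were lower and did not pass. Dok1 rose by 0.44 (SE 0.12), and the kinase gene Fgr fell by 0.41 (SE 0.09). The Dok1 call ended without any 1 of the 4 libraries (0.38 to 0.51, adjusted p = 0.0136 to 0.0805), and the Fgr call without WT/FL replicate 1 or FL/FL replicate 2 (-0.34 and -0.31). Of the 4 genes of the opposing activating adaptors, Tyrobp (DAP12) rose by 0.28 (SE 0.07) and Fcer1g by 0.40 (SE 0.08) on day 4, against the same background, and Hcst (0.29, SE 0.17) and the kinase gene Syk (-0.12, SE 0.04) did not pass. The Tyrobp call ended without either WT/FL library or FL/FL replicate 1 (0.17 to 0.31), and the Fcer1g call without FL/FL replicate 1 (0.35), so that without this library 0 of the 4 were called.

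Other receptors of these families were read in the same comparison. Of 18 tested genes of a list of 20 other inhibitory receptors, 3 were called higher and 2 lower on day 4 (median 0.05), counts near the 9.84% and 11.7% of all tested genes. Klra2, a lectin-like receptor gene, rose by 2.79 (SE 0.17) from 3.79 to 26.3 CPM, the collagen receptor gene Lair1 by 1.06 (SE 0.06) and Milr1 by 0.69 (SE 0.06), while Cd33 fell by 0.66 (SE 0.13) and Cd200r1 by 0.28 (SE 0.06). Of the 27 tested genes of a list of 32 activating relatives, 9 were called higher and 1 lower on day 4 (median 0.43), beside 9.84% and 11.7% of all tested genes. The activating SIRP genes Sirpb1a, Sirpb1b and Sirpb1c, close copies of one another, rose by 1.89 (SE 0.18), 1.5 (SE 0.14) and 1.24 (SE 0.19), beside the 0.13 of Sirpa. In the CD300 family, Cd300e rose by 1.65 (SE 0.15), Cd300ld by 0.56 (SE 0.08) and Cd300c2 by 0.27 (SE 0.05), and Clec4n, the Dectin-2 gene, fell by 0.81 (SE 0.16). The other genes called higher were Trem2 (0.43, SE 0.06), Clec7a (0.57, SE 0.12) and Cd200r4 (1.02, SE 0.27). Leaving out 1 library ended the calls of Cd200r1 and Cd33 in 2 of 4 fits each (-0.26 to -0.24 and -0.60 to -0.53), of Clec4n and Clec7a in 2 of 4 each (-0.78 to -0.71 and 0.41 to 0.54) and of Cd200r4 in 3 of 4 (0.74 to 1.15), with WT/FL replicate 1 among these libraries for Cd200r1, Clec7a and Cd200r4, WT/FL replicate 2 for Cd33 and Clec4n, FL/FL replicate 1 for all but Cd200r1, and FL/FL replicate 2 for Cd200r1 and Cd200r4. Of these genes with their values, Itgb3, St3gal6, Klra2, Sirpb1a, Sirpb1b, Cd300e and the adaptors follow the fixed naming rule, and the rest were picked with their values in view.

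The panel of 8 interferon-stimulated genes used for qPCR in mouse cells (Ifi44, Oasl1, Usp18, Isg15, Oas1a, Ifit3, Irf7 and Cxcl10) gives a scale for these values. All 8 were called higher in 4-OHT FL/FL cells on days 2, 3 and 4, beside 5.69%, 6.69% and 9.84% of all tested genes, with median log2 differences of 1.76, 1.35 and 2.89. The shares called lower were 2.48%, 5.42% and 11.7% on these days. On day 1, 0 of 8 were called (median 0.47), beside 0.0197% of all tested genes. A fit of only the groups compared called 5 of 8 on day 2, 4 of 8 on day 3 and 7 of 8 on day 4, when Ifi44 (3.16, adjusted p = 0.0150, edgeR) did not pass. The Siglec1 differences on the same days, 1.06, 0.90 and 1.43, were also lowest on day 3, but the step down from day 2 was smaller than their SE given above. Those of Cd72, 1.19, 1.5 and 2.08, were higher on each day than on the last. In untreated cells 7 of the 8 rose from day 1 to day 4 (median 2.45), beside 32.7% of all tested genes.

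**Figure D5:**
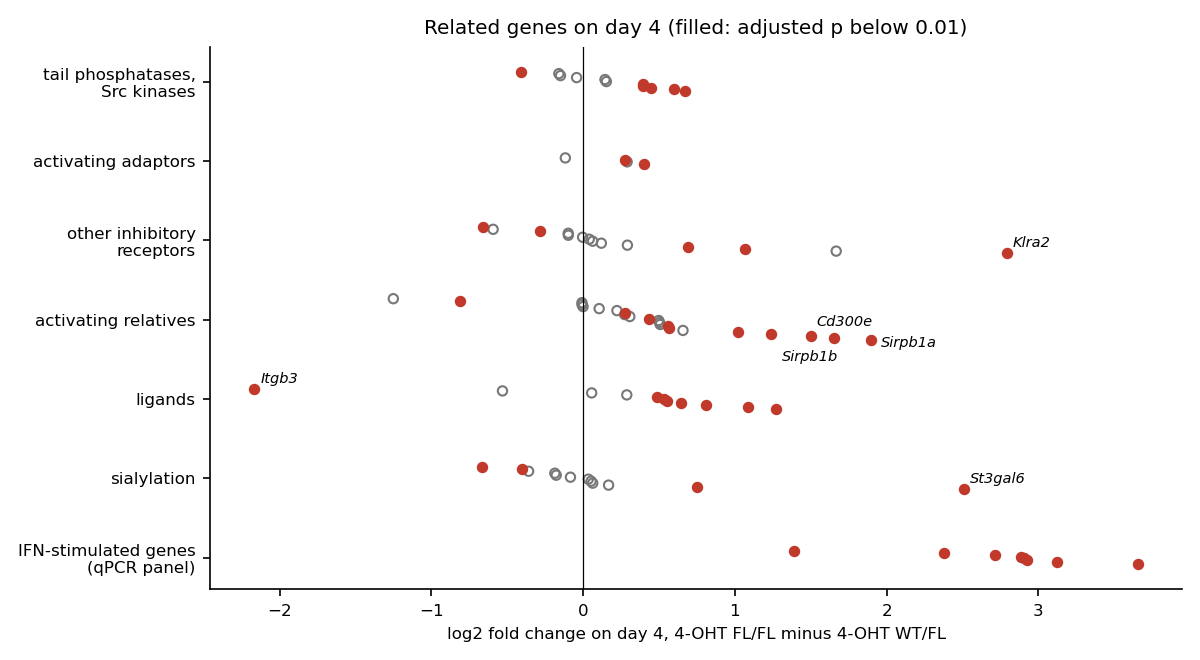
Log2 fold change on day 4 between 4-OHT FL/FL and 4-OHT WT/FL cells for the 82 tested genes of the fixed lists with 5 CPM or more in at least 1 library, by list. Filled points passed an adjusted p of 0.01, and Klra2 (2.79), St3gal6 (2.51), Sirpb1a (1.89) and Itgb3 (-2.17) are the points farthest from 0 outside the interferon-stimulated genes.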

How the data were processed

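Total RNA of 32 libraries was sequenced. The authors quantified reads with Salmon against GRCm39 and summarised them per gene with tximport, and deposited estimated counts as whole numbers. 51048 of 54281 gene identifiers matched GENCODE vM39, and the others held 0.32% of the counts. A filter in edgeR 4.0.16 (R 4.3.3) with a minimum count of 10 left 15257 genes. The edgeR quasi-likelihood test used TMM factors and 1 mean for each of the 16 groups, with Benjamini-Hochberg adjustment over all tested genes and a call at an adjusted p below 0.01. CPM use TMM-scaled totals. Replicate pairs differed beyond counting error in all 16 groups (chi-square per degree of freedom 9.55 to 51.5). The 10 receptors and all gene lists were chosen with earlier results of these data known. Named genes were the 10 receptors, Trex1, list genes with an absolute log2 difference above 1.5 among those called on days 2 to 4, every gene of lists of up to 10, and the 5 genes most like Cd72. The alternatives tried were upper-quartile and RLE factors, the tool DESeq2 1.42.0, a weaker and a stricter filter, a fit on only the groups compared, and each library left out. Scripts were tested on simulated data. Some genes of the fixed lists are counted with their list but not reported here by name.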

Additional observations from a re-analysis of the deposited data

Results flagged for a closer look

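In 4 cases both libraries of one group moved one way and both libraries of another group the opposite way under the same contrast, and these differences between groups were not tested. The share of all tested genes that did the same was not computed. From untreated to 4-OHT cells of day 4, Lilrb4a had a log2 ratio of mean CPM of 0.37 in FL/FL cells and -0.23 in WT/FL cells, and Siglec1 one of 1.52 and -0.15. Clec12a did the same on day 2, with 0.27 in FL/FL cells and -0.024 in WT/FL cells. In the fit, these WT/FL changes had an SE of 0.14 for Lilrb4a, 0.18 for Siglec1 and 0.06 for Clec12a. Those of Siglec1 and Clec12a were smaller than their SE. From day 1 to day 4, Cd300lf had a log2 ratio of 0.92 in 4-OHT FL/FL cells and -1.31 in 4-OHT WT/FL cells. The FL/FL values rest on the libraries on which the genes were selected.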

How the results depend on the processing

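In the tested comparisons, the receptor values checked were those called and the lowest and highest of each comparison. None of these changed direction. Of them, 7 of 241 values from other settings and 37 of 312 with a library left out no longer passed, and these are given beside the results. Uncalled values between the lowest and the highest were not in this check, and not all of them kept their direction with a library left out. In the 4-OHT genotype comparison, given without a test, 35 of 320 receptor values over all other settings moved by more than 1 SE. All 35 came from settings that changed the control, to untreated FL/FL cells or by subtracting the 4-OHT effect in WT/FL cells. The share that moved in those settings was therefore larger, and the remaining settings moved none. With a library left out, 20 of 160 moved. Between untreated genotypes 3 genes were called, 1 in a fit of only the groups compared and 31 with DESeq2, and 2 to 154 with a library left out. For 4-OHT in WT/FL cells the count of 85 was 154 with DESeq2 and 63 to 86 with a library left out. For the difference of day changes it was 0, 3 with DESeq2 and 0 to 626 with a library left out. For the 4-OHT genotypes on day 1 it was 3, 12 in the fit of only the groups compared, 8 with DESeq2 and 2 to 3 with a library left out. On days 2, 3 and 4 the counts of 1246, 1848 and 3284 became 766 to 858, 930 to 1379 and 2123 to 2679 with a library left out. Day steps in untreated cells gave 6903 to 7410, 6658 to 6775, 2711 to 2934 and, from day 1 to day 4, 9199 to 9528. The cause was not tested. For the fixed lists, alternatives chosen after seeing the data changed 4 of 269 calls of named genes, and 21 of 180 with a library left out. The labels give no replicate numbers, but the library numbers form 8 runs of 4, each over days 1 to 4 of 1 genotype and treatment. Deviations from the group means were weakly correlated between days within a run (Pearson's r across genes 0.0136 to 0.144, above 0.1 in 3 of 24). On this ground the runs were not treated as paired. Single receptors did keep an order within runs. In FL/FL cells Siglec1 was higher in replicate 1 on every day (untreated day 2, 400 and 280 CPM), but not in WT/FL cells. Lilrb4a and Lilrb4b were higher in replicate 2 on every day of untreated FL/FL cells. The block below was fitted only for comparisons over days. With the runs as a replicate block, chosen after seeing the data, the counts over days were 7804, 7562, 3823 and 9856, that for the difference of day changes stayed at 0, and 1 receptor call changed: Siglece from day 3 to day 4 (-0.19) had an adjusted p of 0.00997 (edgeR), against 0.0300 without the block. With 2 libraries a group, a library left out leaves 1, which is assumed to vary like the other groups.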
